A study of Mus musculus with 4 samples.

Results

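The transcription factors described here are the 4 Fos genes (Fos, Fosb, Fosl1 and Fosl2), the 3 Jun genes (Jun, Junb and Jund) and 3 Egr genes (Egr1, Egr2 and Egr3). They were taken by name from the gene annotation of the array, which holds 11 probes for these 10 genes among 39429 non-control probes and 26265 named genes. Signals came from 4 one-colour Agilent arrays of islets, the small endocrine organs that lie within the pancreas. The islets had been isolated from C57BL/6 mice, 8 weeks old, and kept in medium with 5.6 mM glucose. For 24 h 2 samples received DMSO, called vehicle, and 2 samples received 30 µM GKA, a small-molecule activator of glucokinase, the enzyme that commits glucose to metabolism in beta cells. Glucose, strain and age were common to both groups. Whether samples of 1 group were separate mice or cultures is not stated in the labels. The p-values therefore cover the spread between these arrays alone, which may be technical.

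Fos and Jun proteins form the dimers called AP-1, which bind DNA through a basic region and pair through a leucine zipper. Fos proteins need a Jun partner, whereas Jun proteins can also pair with each other. Egr proteins bind GC-rich DNA through zinc fingers. Most of these genes are immediate-early genes: calcium, cAMP, growth factors, cytokines and cell stress switch them on without new protein synthesis, and their transcripts are short-lived. In beta cells, glucose and agents that raise cAMP are known to induce several of them soon after stimulation.

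Processed intensities, background-subtracted by the scanner software and not scaled between arrays, are given first for each gene. The log2 values that follow are relative to the 75th percentile of each array, which was 751 and 755 with vehicle and 557 and 598 with GKA. Of the 10 genes, 9 were well above background on all 4 arrays and were tested among 17178 genes with limma, and Egr3 was not. All 13 listed islet endocrine markers were measured, with a summed level of 2605 and 2569 times the 75th percentile with vehicle and 3231 and 3092 with GKA. Whole islets were measured, so fewer cells of a type and less RNA per cell cannot be told apart.

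Among the Fos genes, Fosl2 and Fosb were higher with GKA, and Fos stood above both vehicle arrays on both GKA arrays but did not pass the test. At an adjusted p under 0.05 in limma, 2 of the 9 tested genes were higher and 0 lower (3 and 0 at an unadjusted p under 0.05), where 17.1% of all genes tested passed in either direction, 9.11% as higher and 8.01% as lower. With 9 genes, that count lies close to the background. The median log2 difference was 0.01 over the 9 genes and -0.01 over all genes.

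Fosl2 encodes Fra-2, a Fos protein without the strong activation domain of Fos itself. Its main probe (build mm9, chromosome 5, 32460076 to 32460135) gave an intensity of 480 and 845 with vehicle and 1542 and 1290 with GKA. Both GKA arrays lay above both vehicle arrays. On the scaled log2 axis the vehicle arrays stood at -0.65 and 0.16 and the GKA arrays at 1.47 and 1.11, a difference of 1.53 ± 0.29 (SE, n = 2 per group), or 2.89-fold (adjusted p = 0.0286 in limma). The second Fosl2 probe (chromosome 5, 32455088 to 32455147) was well above background on 1 array only, GKA replicate 1. It read 2.66 and 6.51 with vehicle and 19.4 and 13.1 with GKA. As the other 3 arrays did not measure it above background, no fold is given. The call for Fosl2 was lost without GKA replicate 1, at 1.35 with an adjusted p = 0.110, and without GKA replicate 2, at 1.71 with an adjusted p = 0.0818. It was also lost without the filter on dim probes (adjusted p = 0.113) and with the replicate number as a block (adjusted p = 0.0600).

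Fosb encodes a close relative of Fos with a strong activation domain. Its probe (chromosome 7, 19888168 to 19888227, minus strand) read 80.3 and 99.4 with vehicle and 120 and 110 with GKA. Before scaling, the gap between the groups was thus small, and both GKA arrays were the higher ones. The scaled log2 values were -3.23 and -2.93 with vehicle and -2.22 and -2.45 with GKA, a difference of 0.74 ± 0.16, or 1.67-fold (adjusted p = 0.0366 in limma). The call for Fosb rests on the scaling: the difference was 0.36 without scaling (adjusted p = 0.0984) and 0.20 with spike-in scaling (adjusted p = 0.524), against a median of all genes of -0.40 and -0.56 under those settings. It was also lost without vehicle replicate 1 (0.59), GKA replicate 1 (0.63) or GKA replicate 2 (0.86), without the filter on dim probes (adjusted p = 0.132) and with the replicate block (adjusted p = 0.0706). With spike-in scaling, here and below, the fit gave every gene the same SE of 0.27. Its p-values and calls therefore leave out each gene's own spread between replicates.

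Fos, the founding member of the family, was measured by 10 spots of a single probe on each array (chromosome 12, 86817900 to 86817959). Their mean was 47.0 on vehicle replicate 1, 266 on vehicle replicate 2, 314 on GKA replicate 1 and 376 on GKA replicate 2. The low array stands out from the other three, and vehicle replicate 2 lies much nearer to the GKA arrays than to its own partner. Across the 10 spots the intensity ran from 40.8 to 52.5 on vehicle replicate 1 and from 257 to 275 on vehicle replicate 2, so the spots of the vehicle arrays did not overlap. The SD of log2 intensity between spots was 0.13, 0.04, 0.03 and 0.10 on vehicle replicates 1 and 2 and GKA replicates 1 and 2. The group difference was 2.00 ± 0.77 on the log2 scale, with a 95% interval from 0.05 to 3.95, and did not pass (adjusted p = 0.131 in limma). Without vehicle replicate 1 it was 0.76 (adjusted p = 0.0448), and without vehicle replicate 2 it was 3.25 (adjusted p = 0.00157), so that its size depends on the vehicle array kept. In fits with a lone vehicle array, here and below, the spread comes from the GKA arrays alone and leaves out the gap between the vehicle arrays, so their p-values are no support for a change.

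Fosl1, which encodes Fra-1, a Fos protein that like Fra-2 lacks the strong activation domain, read 58.6 and 86.7 with vehicle and 64.7 and 64.9 with GKA (chromosome 19, 5455496 to 5455555). The GKA arrays fell between the vehicle arrays before scaling. On the scaled axis GKA replicate 1, at -3.11, lay just above vehicle replicate 2, at -3.12, and the difference was 0.25 ± 0.20 (adjusted p = 0.433 in limma), but below 0 with spike-in scaling, with no scaling and without vehicle replicate 1.

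**Figure D1:**
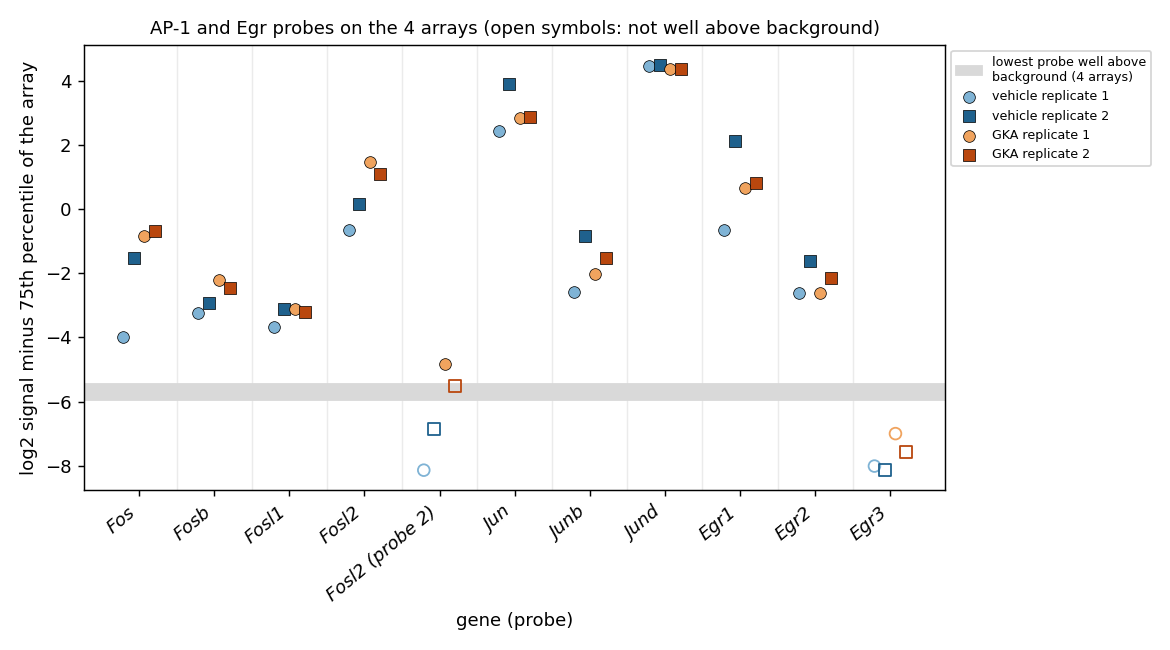
Scaled log2 signal (vertical axis, log2 minus the 75th percentile of the array) of the 11 Fos, Jun and Egr probes on the vehicle arrays (blue) and GKA arrays (orange), each point 1 array, with open symbols where the probe was not well above background. Vehicle replicate 1 is the lowest array for Fos, Jun, Junb and Egr1, and in these genes the GKA arrays lie closer together than the vehicle arrays.

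Promoter sequences show what letters stand before the start sites of the Fos-family genes that were higher on the GKA arrays, and of Junb. Like Fos, Jun, Egr1 and Egr2, Junb differed widely between the vehicle arrays. RefSeq start sites of build GRCm38.p6 were matched by symbol for 7 of the 10 genes. Those of Egr1, Egr3 and Fosl1 were not matched. The 250 bases before the first listed start were searched on both strands for TGACGTCA, the site of CREB and AP-1 relatives called a CRE, its part TGACG, the AP-1 site TGANTCA, the Egr sites GCGTGGGCG and GCGGGGGCG, and the CArG box of serum response factor. TGACG lies within TGACGTCA and so overlaps it. Capitals mark matches in the windows of Fosl2, Fosb, Fos and Junb, each written 5′ to 3′ toward the start site:
Fosl2, chr5:32136222-32136471, strand +: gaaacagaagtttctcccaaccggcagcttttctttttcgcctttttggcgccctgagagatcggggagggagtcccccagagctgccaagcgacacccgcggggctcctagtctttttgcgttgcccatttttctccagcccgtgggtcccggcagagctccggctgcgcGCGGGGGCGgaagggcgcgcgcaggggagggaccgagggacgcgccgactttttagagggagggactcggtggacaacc
Fosb, chr7:19310046-19310295, strand -: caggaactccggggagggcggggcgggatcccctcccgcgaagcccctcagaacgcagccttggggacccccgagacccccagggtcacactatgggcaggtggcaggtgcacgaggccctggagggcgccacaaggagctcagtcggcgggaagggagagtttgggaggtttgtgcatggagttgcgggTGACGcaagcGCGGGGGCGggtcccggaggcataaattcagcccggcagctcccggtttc
Fos, chr12:85473640-85473889, strand +: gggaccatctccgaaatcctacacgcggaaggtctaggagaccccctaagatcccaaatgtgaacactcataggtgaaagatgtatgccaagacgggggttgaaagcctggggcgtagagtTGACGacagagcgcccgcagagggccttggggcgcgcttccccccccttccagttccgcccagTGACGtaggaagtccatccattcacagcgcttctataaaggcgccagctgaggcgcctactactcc
Junb, chr8:84978749-84978998, strand -: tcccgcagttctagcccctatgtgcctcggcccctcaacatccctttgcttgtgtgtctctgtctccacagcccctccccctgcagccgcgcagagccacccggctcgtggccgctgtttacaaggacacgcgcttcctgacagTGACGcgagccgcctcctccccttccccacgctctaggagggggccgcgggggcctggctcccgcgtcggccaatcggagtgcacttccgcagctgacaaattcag

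GCGGGGGCG was found in the windows of Fosl2, 71 to 79 bases before the start, and Fosb, 42 to 50 bases before it. That is 2 of the 7 member windows, and 2.56% of the windows of 27025 genes held it. TGACG was found in 3 of the 7, in Fos 62 to 66 and 125 to 129 bases before the start, in Fosb 56 to 60 and in Junb 102 to 106, with a share of 17.9% over all genes. The other letters searched, TGACGTCA (1.62% of all windows), TGANTCA (6.87%), GCGTGGGCG (0.540%) and the CArG box (1.40%), were not in the 7 member windows, a count of 0. The windows of Jun, Jund and Egr2 held no match and are not printed. A match describes letters in this window and is not evidence of binding. A missing match says nothing of bases outside the window, nor of Egr1, Egr3 and Fosl1, which had none to search. With shares this low over all genes, a count of 0 in 7 windows is unremarkable.

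The Jun genes did not pass, and the vehicle arrays differed from each other in Jun and Junb by more than the groups did. Jun encodes the main partner of Fos proteins. Its probe (chromosome 4, 94716928 to 94716987, minus strand) read 4110 and 11375 with vehicle against 4017 and 4374 with GKA. Vehicle replicate 2 alone was high, and the other three arrays were close together before scaling. On the scaled axis both GKA arrays, at 2.85 and 2.87, lay between the vehicle arrays, at 2.45 and 3.91. The difference was -0.32 ± 0.46 with a 95% interval from -1.48 to 0.84 (adjusted p = 0.649 in limma). It was -1.05 without vehicle replicate 1 (adjusted p = 0.0162) and 0.41 without vehicle replicate 2 (adjusted p = 0.132), so that its sign depends on the vehicle array kept.

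Junb, whose product pairs with Fos proteins and often activates less than Jun, read 125 and 428 with vehicle and 136 and 209 with GKA (chromosome 8, 87501881 to 87501940, minus strand). The GKA arrays lay between the vehicle arrays here as well. The scaled values were -2.58 and -0.82 with vehicle and -2.03 and -1.52 with GKA, a difference of -0.07 ± 0.57 with a 95% interval from -1.52 to 1.37 (adjusted p = 0.942 in limma). Leaving out vehicle replicate 1 gave -0.95, and leaving out vehicle replicate 2 gave 0.81.

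Jund is the Jun gene that many resting cells express steadily. Its probe (chromosome 8, 73224436 to 73224495) read 16657 and 17158 with vehicle and 11581 and 12504 with GKA, lower on both GKA arrays before scaling. Scaling brought the arrays to 4.47 and 4.51 with vehicle and 4.38 and 4.39 with GKA, a difference of -0.11 ± 0.11 with a 95% interval from -0.38 to 0.17 (adjusted p = 0.529 in limma). It had the narrowest interval of the 9 genes. Without scaling the difference was -0.49 (adjusted p = 0.0221), and with spike-in scaling it was -0.65 (adjusted p = 0.0383), close to the median of all genes under those settings.

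Egr1 showed the widest gap between the vehicle arrays of the 9 tested genes and a group difference near 0. It encodes the zinc-finger factor most often used as a readout of growth factor and calcium signals. Its probe (chromosome 18, 35024395 to 35024454) read 481 on vehicle replicate 1 and 3281 on vehicle replicate 2, against 877 and 1064 on the GKA arrays. Both GKA arrays lay between the vehicle arrays, which differed 6.78-fold after scaling. The scaled values were -0.64 and 2.12 with vehicle and 0.66 and 0.83 with GKA, and the difference was 0.01 ± 0.85 with a 95% interval from -2.15 to 2.16 (adjusted p = 0.997 in limma), below 0 with median scaling, without scaling, with spike-in scaling and with normexp background correction. Against vehicle replicate 2 alone, Egr1 was lower with GKA, by -1.37 (adjusted p = 0.0102), and against vehicle replicate 1 alone it was higher, by 1.39 (adjusted p = 0.00726). These 2 fits leave out the vehicle gap, as above. In the authors' deposited table, Egr1 has a ratio of GKA over control of 0.516, from group intensities of 971 and 1881. That table holds plain means of unscaled intensities, in which the brighter vehicle array weighs more. For Jun the ratio in the authors' deposited table is 0.542, for Junb 0.624 and for Fos 2.20. Over the 39030 probes compared, the median of these unscaled ratios is 0.841.

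Egr2, a factor known from Schwann cells and from macrophages and lymphocytes, read 122 and 247 with vehicle and 90.1 and 134 with GKA (chromosome 10, 67004798 to 67004857). After scaling, GKA replicate 1 and vehicle replicate 1 had nearly the same value, -2.63 on each. The difference was -0.27 ± 0.36 with a 95% interval from -1.18 to 0.64 (adjusted p = 0.625 in limma), and it was 0.24 without vehicle replicate 2. Egr3, a relative induced in neurons and lymphocytes, read 2.91 and 2.68 with vehicle and 4.35 and 3.16 with GKA (chromosome 14, 70479222 to 70479281). Its probe was not well above background on any of the 4 arrays, so no fold is given.

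**Figure D2:**
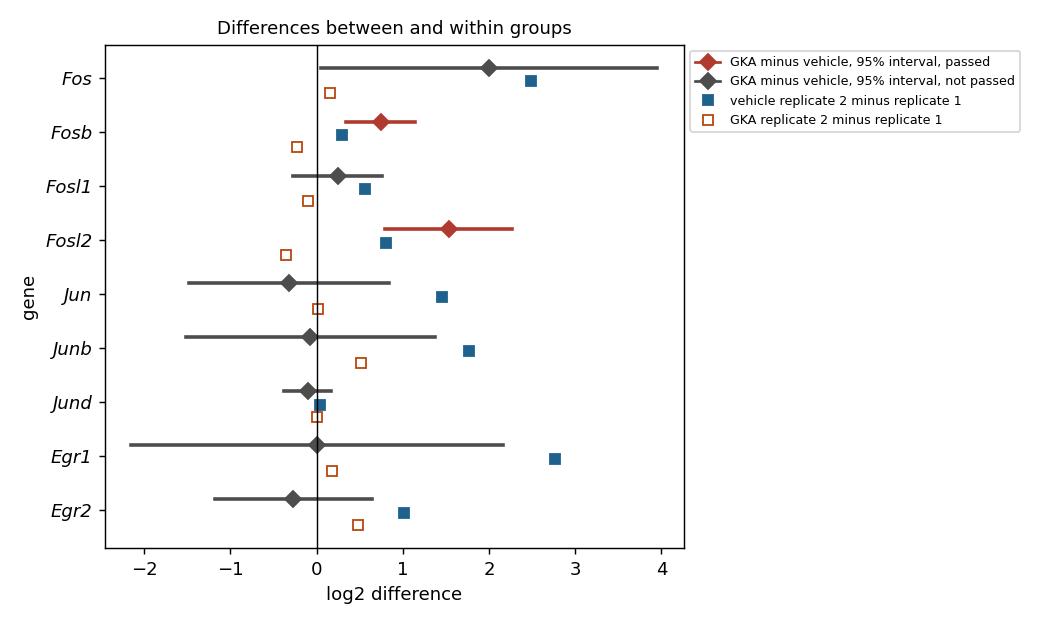
Log2 difference between groups (diamonds with 95% intervals from limma, red where the adjusted p was under 0.05) and between the replicates of each group (squares) for the 9 tested genes. The gap between the vehicle arrays (blue) exceeds the group difference for 6 genes, among them Egr1 at 2.76 and Fos at 2.49, whereas the gap between the GKA arrays stays at 0.51 or less.

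The same direction of the vehicle gap ran through the family. Vehicle replicate 2 exceeded vehicle replicate 1 in 9 of the 9 tested genes, where it did so in 42.5% of all 17178 genes and in 42.1% of the 16891 genes well above background on both vehicle arrays. The gap was over 2-fold for 5 genes, Egr1 (6.78-fold), Fos (5.62-fold), Junb (3.40-fold), Jun (2.75-fold) and Egr2 (2.02-fold), against 1.49% of all genes and 1.15% of those 16891. It was 1.75-fold for Fosl2, 1.47-fold for Fosl1, 1.23-fold for Fosb and 1.02-fold for Jund. Ranked among the 16891 genes by how far vehicle replicate 2 exceeded vehicle replicate 1, Egr1 stood at place 4, Fos at 8, Junb at 27, Jun at 46 and Egr2 at 119. The median gap of the 9 genes was 1.01 on the log2 scale against -0.04 over all genes. Between the GKA arrays the median gap was 0.02, beside -0.04 over all genes. Without regard to sign it was 0.18, beside 0.14 over all genes. None of the 9 genes differed over 2-fold (a count of 0), and 181 of all 17178 genes did. The widest gaps were 0.51 for Junb and 0.47 for Egr2, sizes that 6.52% and 7.88% of all genes reached. The GKA arrays were thus no closer in these genes than in genes at large.

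Both GKA arrays lay between the vehicle arrays in 3 of the 9 genes, Egr1, Jun and Junb, where that held for 7.77% of all genes. The groups did not overlap in 4 genes, Fos, Fosb and Fosl2 with GKA above and Jund with GKA below, against 65.9% of all genes. The gap between the vehicle arrays was larger than the group difference in 6 of the 9 genes and in 33.4% of all genes. These shares describe the arrays, as genes are not independent replicates.

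**Figure D3:**
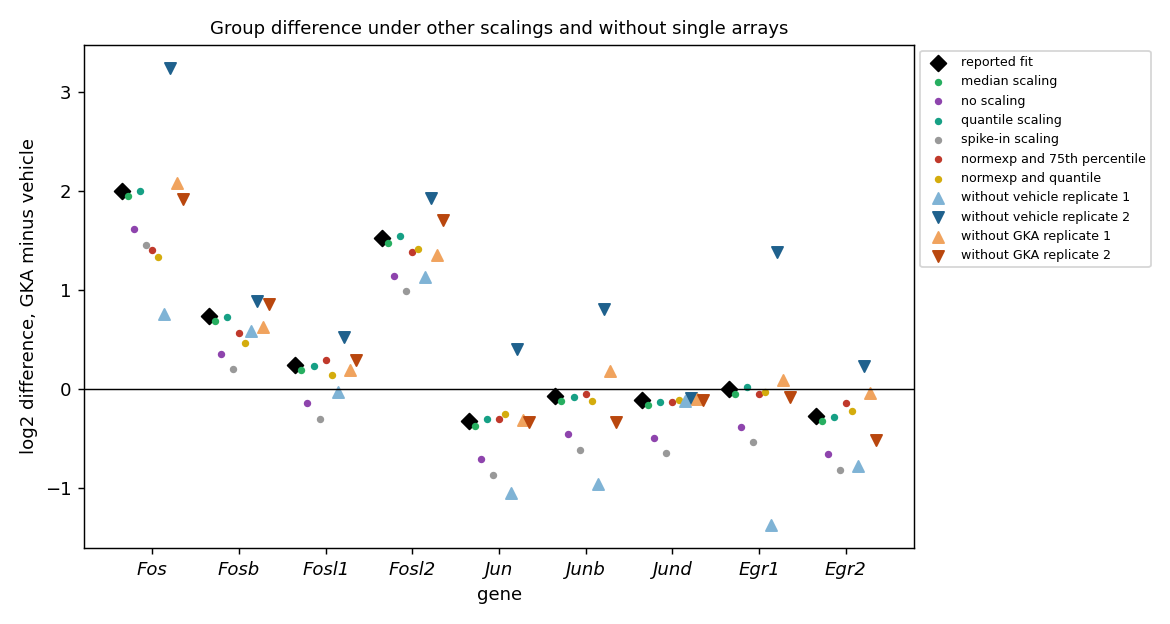
Log2 difference between GKA and vehicle (vertical axis) for the 9 tested genes in the reported fit (black), under other scalings and background corrections (dots) and without single arrays (triangles). Fos, Fosb and Fosl2 stay above 0 throughout, while Jun, Junb, Egr1 and Egr2 lie below 0 without vehicle replicate 1 and above 0 without vehicle replicate 2.

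Of the partners and regulators of these factors, 1 gene passed with the reported scaling, beside 17.1% of all genes tested. More were lower under other scalings, where more of all genes were lower too. Of 10 measured genes that can pair with Fos or Jun proteins, 0 passed in limma (2 higher and 1 lower at an unadjusted p under 0.05), with a median log2 difference of -0.03. The brightest of these, the small Maf gene Mafg (-0.11, but above 0 without vehicle replicate 1) and Atf2 (0.04, but below 0 with median scaling, spike-in scaling or none), did not pass. Of the Egr corepressors, Nab2, itself a known Egr target, stood at 0.38 (adjusted p = 0.0757) and Nab1 at 0.15 (adjusted p = 0.468), but both were below 0 with spike-in scaling or with no scaling. Egr4 was not well above background on both arrays of either group. Serum response factor and its 5 measured cofactors had 0 genes that passed in limma (0 also at an unadjusted p under 0.05), with Elk1 at 0.12 and Elk3 at 0.16, but both were below 0 with spike-in scaling or with no scaling, and Elk1 also with quantile scaling. Of 20 genes of the MAP kinase cascade, which activates these factors, 1 was higher, Mapk10, a JNK kinase of neurons and islets (0.89 ± 0.13, adjusted p = 0.0169 in limma). The other 19 did not pass. Mapk10 did not pass with spike-in scaling, without the filter on dim probes or without either GKA array in turn. With spike-in scaling 5 of the 10 partners and 8 of the 20 MAP kinase genes were lower. So were 3 of the 6 genes of the serum response factor list, and 7527 of all 17178 genes tested. With no scaling 4 partners, 7 MAP kinase genes and 4 of the serum response factor list were lower, beside 7654 of all genes. Those settings move the median of all genes to -0.56 and -0.40, and the counts are not read as particular to these lists. The spike-in calls leave out each gene's own spread between replicates, as above.

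Of 22 other immediate-early genes measured, 7 were higher, 1 was lower and 14 did not pass, beside 17.1% passing among all genes, with a median log2 difference of 0.31. Without GKA replicate 1, without GKA replicate 2 or without the filter on dim probes, 2 were higher and 0 lower. The orphan nuclear receptor Nr4a2 rose by 3.83 ± 0.15 (adjusted p = 0.00249 in limma), Crem, a CREB-family feedback gene, by 1.94 ± 0.16, the kinase gene Sik1 by 1.64 ± 0.26 and the activity-dependent factor Npas4 by 1.41 ± 0.34. Myc fell, with a log2 difference of -0.91 ± 0.19 (adjusted p = 0.0359). Vehicle replicate 2 exceeded replicate 1 in 17 of the 22 genes, with a median gap of 0.50. It did not do so for Nr4a2, which stood at -1.92 and -2.23 with vehicle and 1.84 and 1.66 with GKA, nor for Npas4, at -4.28 and -4.98 with vehicle and -2.83 and -3.61 with GKA. For Nr4a2, Crem, Sik1, Npas4 and Myc, the groups were further apart than the vehicle arrays were. These genes were named because they passed a test that sets the group difference against the replicate spread. Their wider group difference thus largely follows from that choice. The vehicle gap was larger than the group difference in 11 of the 22 genes, beside 33.4% of all genes.

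**Figure D4:**
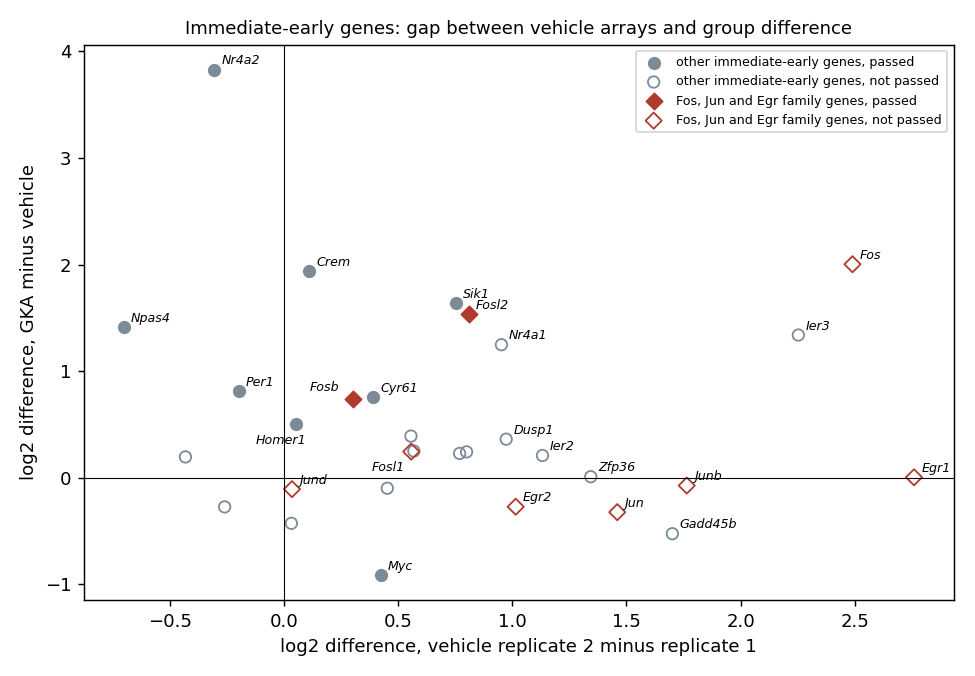
Log2 difference between GKA and vehicle (vertical axis) against the gap between the vehicle arrays (horizontal axis, replicate 2 minus replicate 1) for the 9 Fos, Jun and Egr family genes (red) and 22 other immediate-early genes (grey), filled where the adjusted p was under 0.05. Both axes use the vehicle arrays, so the plot is no test of a relation; Egr1, Fos, Ier3, Junb and Gadd45b lie at the right with wide vehicle gaps, and Nr4a2 and Npas4 lie left of 0.

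Among 19 measured genes described as AP-1 targets, 4 were higher and 1 lower, beside 9.11% and 8.01% of all genes, with a median of 0.10. Spp1, which encodes osteopontin, rose by 2.26 ± 0.29 (adjusted p = 0.0130 in limma), Hmox1, the heme oxygenase gene, by 1.49 ± 0.28, and Ccnd1, which encodes cyclin D1, by 0.50 ± 0.11, the last below 0 with spike-in scaling. The fourth, the collagenase gene Mmp13, was at least 1.77-fold higher with GKA, with each vehicle array taken at its lowest value well above background. Mmp13 was above background on the GKA arrays only and so entered the test through the group where it is high. With probes required to be well above background on all 4 arrays, 3 AP-1 targets were higher. Areg, a ligand of the EGF receptor, was lower, at -0.99 ± 0.17 (adjusted p = 0.0243). In this list the vehicle gap was over 2-fold for 6 of 19 genes, and vehicle replicate 2 was the higher array in 16. Of 16 described Egr targets, Pdx1, which drives insulin gene transcription, was higher (1.11 ± 0.16, adjusted p = 0.0166) and Pdgfa, a growth factor gene, lower (-0.49 ± 0.11, adjusted p = 0.0430), and 14 did not pass, beside the same 9.11% and 8.01%, with a median of 0.10. The vehicle gap was over 2-fold for 1 of these 16. Of the 13 genes named here from the lists as higher or lower, 4 still passed without GKA replicate 1 and 3 without GKA replicate 2, while 11 passed without vehicle replicate 1 and 9 without vehicle replicate 2. Without the filter on dim probes 2 of the 13 passed. With the replicate block 9 passed (Ccnd1, Hmox1, Mmp13 and Pdgfa were lost), and with spike-in scaling 10 (Ccnd1, Mapk10 and Pdx1 were lost).

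Marker genes of other cell types were set beside these values. The summed level of the 13 measured leukocyte markers was 12.4 and 11.3 with vehicle and 11.7 and 10.6 with GKA, with 5 lower, 1 higher and 7 not passing. The 9 fibroblast and stellate markers summed to 10.7 and 13.5 with vehicle and 9.79 and 11.0 with GKA, and their median vehicle gap was 0.34. The 10 endothelial markers summed to 16.8 and 16.6 with vehicle and 17.6 and 16.3 with GKA, and the 7 duct markers to 32.0 and 28.2 with vehicle and 27.4 and 33.4 with GKA. Among the duct markers Krt7 (-0.79) and Cldn4 (-0.81) were lower, and Spp1, which is also in the list of AP-1 targets, was higher. Of 11 acinar markers on the array, 6 were measured, with a summed level of 3.99 and 3.64 with vehicle and 8.37 and 8.99 with GKA. Most of that sum was Bhlha15, a transcription factor of secretory cells, which was higher with GKA (1.37 ± 0.12, adjusted p = 0.00588 in limma). The trypsin gene Try4 was the 1 acinar marker called lower and was above background on the vehicle arrays only. The markers Cpa1, Cela2a, Prss2, Pnlip and Ptf1a were not above background. Markers of smooth muscle and Schwann cells summed to 1.46 and 1.77 with vehicle and 1.54 and 1.60 with GKA. The part of other cell types in the values of the Fos, Jun and Egr genes was not tested.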

How the data were processed

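Per the file headers, the authors made the spot intensity with Agilent Feature Extraction version 10.7.3.1 (the submitters' processing notes name 9.1). The authors' deposited table adds group intensities and a ratio of GKA over control, each equal, within 0.1%, to the plain mean of 2 arrays and to their quotient. Spots marked as outliers and control spots were left out. The log2 intensity, less the array's 75th percentile, was averaged over spots, probes well above background on both arrays of a group were kept (24481), and each gene took its brightest probe. No probe was saturated, a count of 0. Groups were compared with limma 3.58.1 (lmFit, eBayes) in R 4.3.3, as a two-sided test adjusted by Benjamini-Hochberg over 17178 genes; 2 residual and 3.33 prior degrees of freedom. A permutation of these arrays cannot go below p = 0.333. On simulated data for this comparison, over 17178 genes, 38.4% of 2-fold and 93.6% of 4-fold changes were recovered. Without regard to sign, the median vehicle gap was 1.01 for the 9 genes and 0.15 for all genes. The simulated rates therefore need not hold for the 9 genes. By the array numbers of the deposited files, vehicle took the first places of the slide and GKA the last: place and group cannot be told apart. The genes and lists were chosen with earlier results of these data known. All 10 member genes are named, with up to 4 passing genes per direction of each list, or its 2 brightest where none passed; other names were chosen after their values were seen. Normexp used the median spot signal, not the mean planned. Scaling, background, filter, probe, replicate and block alternatives were tried. The number of arrays limits precision.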

Additional observations from a re-analysis of the deposited data

How the results depend on the processing

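Fos, Fosb and Fosl2 stayed above 0 and Jund below 0 in all 16 settings tried. Log2 differences without one array are given as ranges: Fos 0.76 to 3.25, Fosb 0.59 to 0.89, Fosl1 -0.032 to 0.52, Fosl2 1.13 to 1.94, Jun -1.05 to 0.41, Junb -0.95 to 0.81, Egr1 -1.37 to 1.39, Egr2 -0.78 to 0.24, Mafg -0.22 to 0.00041 and Atf2 -0.042 to 0.13. In the same fits 0 to 4 of the 9 genes passed as higher and 0 to 2 as lower in limma. Over all genes 315 to 1523 were higher and 206 to 1312 lower. No scaling gave 750 higher and 7654 lower genes, 1 and 1 among the 9, with Fosb at 0.36, Fosl1 -0.14, Jund -0.49, Egr1 -0.38, Nab2 -0.0078, Nab1 -0.24, Elk1 -0.27, Elk3 -0.22 and Atf2 -0.34. Spike-in scaling gave 435 higher and 7527 lower genes, with 2 of the 9 higher, Fos and Fosl2, and 4 lower. Its fit gave every gene the same SE of 0.27, so those calls leave out each gene's own spread between replicates. Under spike-in scaling Fos stood at 1.46, Fosb 0.20, Fosl1 -0.30, Jun -0.86, Junb -0.61, Jund -0.65, Egr1 -0.54, Egr2 -0.81, Nab2 -0.17, Nab1 -0.39, Elk1 -0.42, Elk3 -0.38, Ccnd1 -0.040 and Atf2 -0.50. The vehicle gap was then 0.64 for Fosb and 0.37 for Jund. The small vehicle gap of Jund was 0.063 with median scaling, 0.082 with quantile scaling, 0.0024 with normexp and 0.082 with normexp and quantile scaling. Median scaling put Egr1 at -0.046 and Atf2 at -0.0076, and quantile scaling put Elk1 at -0.25. Normexp correction, chosen after seeing the data, gave 2999 higher genes, Fos 1.40 (adjusted p = 0.0262 in limma) and Egr1 -0.047, and with quantile scaling Egr1 -0.026 and Elk1 -0.20. With no filter on dim probes 156 genes were higher and 67 lower and 0 of the 9 passed, with Fosb at 0.74 and Fosl2 at 1.53. With the replicate number as a block, whose pairs deviated together with r = 0.0751, 1014 were higher and 902 lower and 0 of the 9 passed (Fosb 0.74, Fosl2 1.53). A variance trend gave 2094 lower genes, and a threshold of 0.1 gave 2522 higher and 2482 lower. The normexp run planned on the mean spot signal was not run. Apart from what a setting's construction shows, such as fewer arrays, the cause was not tested. With 2 arrays a group, 2-fold changes were often missed.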

Other observations

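Among the genes well above background on both vehicle arrays, 3 had a wider vehicle gap than Egr1, and they are named here after their values were seen. They were the chemokine genes Cxcl1 (4.48 on the log2 scale, vehicle replicate 2 minus replicate 1) and Cxcl5 (3.23), and the NF-kB feedback gene Tnfaip3 (2.86). For Cxcl1 the scaled signal was -3.42 and 1.06 with vehicle and -1.26 and -0.49 with GKA, and for Tnfaip3 it was -1.34 and 1.51 against -0.41 and -0.08. In all 3, as in Egr1, Jun and Junb, the GKA arrays lay between the vehicle arrays.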
